A study of Mus musculus with 24 samples.

Results

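Immediate early and stress-induced factors are described here as the genes of the expression table whose symbols begin with FOS, JUN, NR4A, ZFP36 or CREB, or with EGR, IER, ATF, DUSP, BTG or KLF followed by a digit. This rule found 56 of the 7493 genes in the table. The study sequenced bulk RNA from SENCR-BAC transgenic mice, in which a bacterial artificial chromosome supplies the human gene for SENCR, a long non-coding RNA lying antisense to FLI1. There were 24 libraries, 3 for each of the aorta, lung, stomach, brain, spleen, heart, kidney and liver, and all of them are labelled as carrying the transgene. The labels name no mice without the transgene, no stimulus and no time after one, and give no strain, sex or age, so the values are levels at collection and say nothing of induction. The design text calls the libraries of a tissue biological triplicates, but which libraries came from the same animal is not stated, and p-values measure only the spread between these libraries.

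Immediate early genes are switched on within minutes of a stimulus, without new protein synthesis, when kinases phosphorylate factors already bound at their promoters, such as serum response factor and CREB. FOS and JUN proteins pair into the transcription factor AP-1, EGR and KLF proteins are zinc finger factors, and NR4A proteins are nuclear receptors that act without a known hormone. Feedback comes from DUSP phosphatases, which inactivate the mitogen-activated protein kinases, from ZFP36 proteins, which speed the decay of mRNAs with AU-rich elements, and from BTG proteins, which restrain proliferation.

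Values are deposited FPKM, a read count divided by gene length and library depth, obtained on a human genome build although the tissues are from mice. A gene's level therefore depends on how much of its sequence the mouse and human genes share, and levels were compared between tissues within a gene and not between genes. Reads were recovered for all 7493 genes as the smallest whole numbers in the ratio of a gene's values across libraries. They are lower bounds for genes above 0 in few libraries. The libraries held 193900 to 642307 recovered reads, with a mean of 205974 in liver and 605473 in brain. The recovered reads of SENCR ranged from 1 to 46 and were above 0 in all 24 libraries (1.20 to 102 FPKM). The summed markers of each tissue were highest in that tissue, although the liver marker ALB had a mean of 0.752 FPKM in liver and 13.02 FPKM in aorta, only 1 of 4 markers was in the table for each of lung, spleen and stomach, and the stomach marker reached only 0.918, 4.85 and 1.99 FPKM. Heart muscle markers (3 of 4 in the table) summed to 923 to 1234 FPKM in the lung libraries, against 48060 to 58310 FPKM in heart. The 13 mitochondrially encoded genes summed to 838.5, 10.9 and 582 FPKM in aorta replicates 1, 2 and 3, and to at most 35.6 FPKM in any other library.

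A difference below is the mean log2(FPKM + 1) of a tissue minus the mean of the other 7 tissues, given with its standard error. A gene was called higher or lower when limma's Benjamini-Hochberg adjusted p was under 0.05 and the difference was at least 1 in size. Because of the added 1, such differences understate the change of genes with low FPKM. Of the 56 members, 39 had at least 1 FPKM in at least 3 libraries and were tested, among 4260 such genes. By family, the tested members were 6 of 7 in AP-1, 1 of 4 in EGR, 3 of 3 in NR4A, 7 of 8 in DUSP, 2 of 4 in IER, 2 of 3 in ZFP36, 2 of 3 in BTG, 8 of 15 in ATF and CREB and 8 of 9 in KLF. CREB5 passed this filter through aorta alone, and ATF5 only with its liver libraries (1 library elsewhere reached 1 FPKM), so both had to differ there and their calls carry no weight as tests.

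The 17 members that were not tested include several of the best known immediate early genes. EGR1 had 2 recovered reads in all 24 libraries together and at most 0.917 FPKM. IER2, IER3, ZFP36, FOSL1, EGR2 and EGR4 were each above 0 in 1 library only, at 1.12 to 3.03 FPKM. For such a gene the recovery returns 1 read whatever the true count. ATF4, the effector of the integrated stress response, had 17 reads and at most 1.07 FPKM, and BTG2 had 2 reads. The other members without a test were ATF6B, ATF7, ATF7IP, CREB3L1, CREBL2, CREBRF, DUSP11 and KLF8. Together the 17 had 96 recovered reads, a lower bound, and none exceeded 3.03 FPKM in any library. Counting on a human build can lower such values, and they do not show that the genes are silent.

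**Figure D1:**
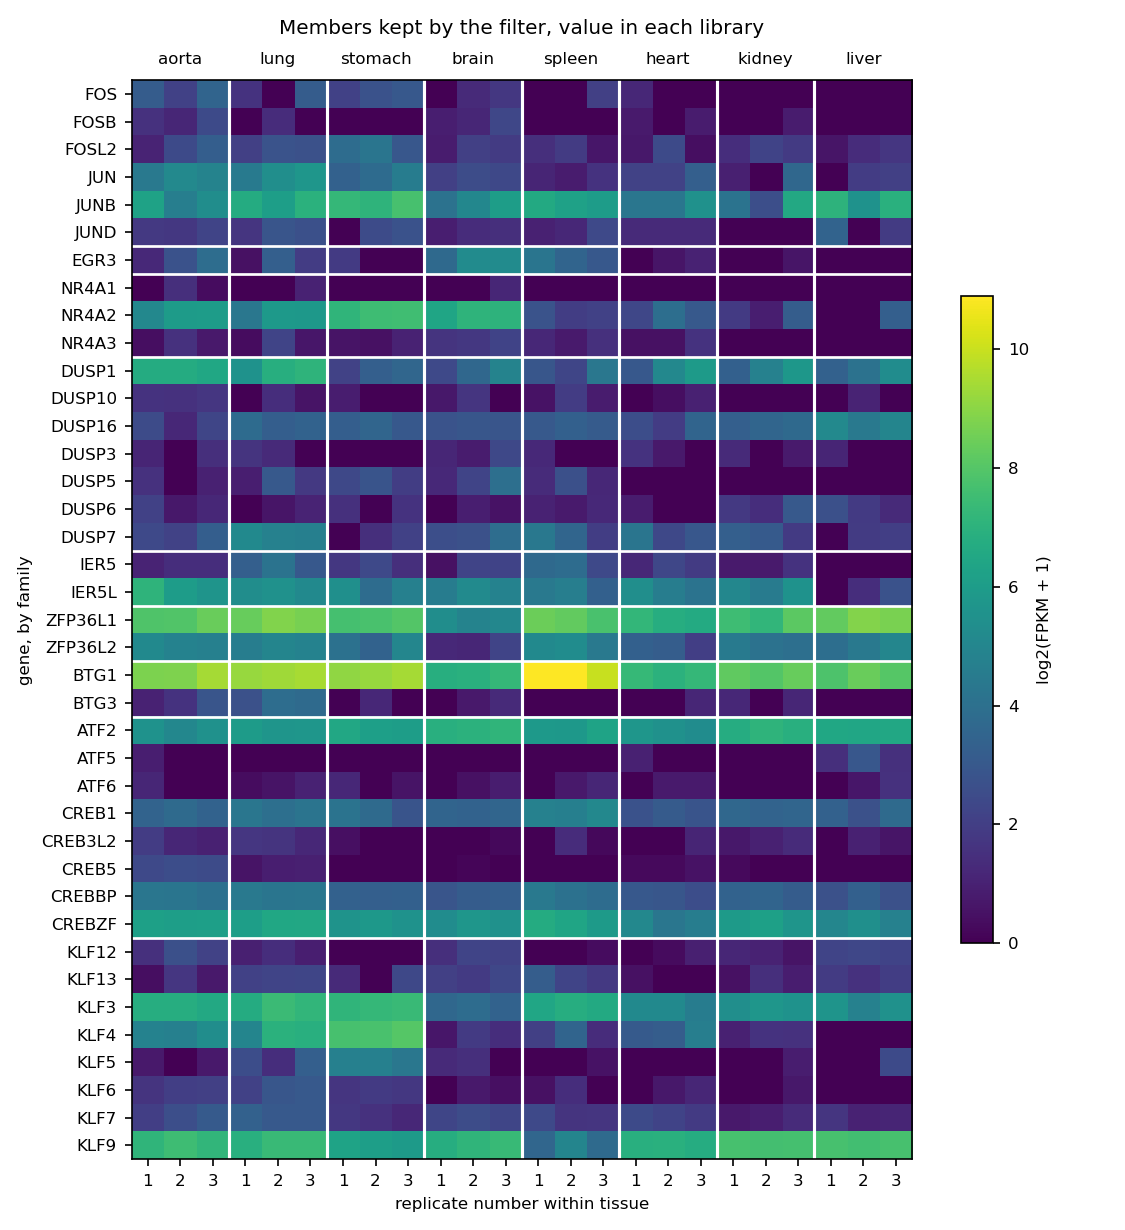
Heat map of log2(FPKM + 1) for the 39 tested members (rows, grouped by family) in each of the 24 libraries (columns, grouped by tissue with replicate numbers 1 to 3), with white lines between families and tissues and the colour scale from 0 (dark) upward. The bright row of BTG1 peaks in spleen, KLF4 and NR4A2 are bright in stomach, KLF9 is dark in spleen, and ZFP36L1 and KLF3 are dark in brain.

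Most tested members differed among tissues. An F test across the 8 tissues was passed by 34 of the 39, against 77.6% of all tested genes. The 5 that did not pass were DUSP10 (adjusted p = 0.0568), JUND (0.110), DUSP3 (0.326), NR4A1 (0.403) and ATF6 (0.742). In pairwise tests 7 members exceeded each of the other 7 tissues, against 24.1% of all tested genes. These were KLF4 and KLF5 in stomach, ATF5 and DUSP16 in liver, BTG1 in spleen, BTG3 in lung and CREB5 in aorta. Among genes that pass the filter whichever tissue is set aside, which leaves out ATF5 and CREB5, 5 of 36 members did so, against 16.5% of 3460 genes.

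Aorta and lung had the most upward calls of the 8 tissues. In aorta 12 members were higher and 1 was lower, where 9.58% and 8.19% of all tested genes were called in those directions. The 12 were BTG3, CREB5, DUSP1, DUSP10, FOS, FOSB, IER5L, JUN, KLF4, KLF12, NR4A2 and ZFP36L2, and DUSP16 was lower. In lung 11 members were called higher and none was called lower by limma, where 11.9% and 3.64% of all tested genes were called. The 11 were BTG3, DUSP1, DUSP7, IER5, JUN, KLF3, KLF4, KLF5, KLF6, KLF7 and ZFP36L1. ATF2 was below the other tissues in lung at a limma adjusted p of 0.0216, but its difference (-0.41 ± 0.13) was under the size needed for a call. With limma voom on recovered reads the count of members lower in lung was also 0.

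The median difference of the tested members was 0.86 in lung, against 0.15 for all tested genes there, and 0.53 in aorta, against -0.18 for all tested genes. The aorta counts rest on several libraries: without aorta replicates 1 and 3, which stand apart in mitochondrially encoded genes, 3 members were higher, but that fit has a single aorta library. Of the 12 members higher in aorta, 4 were lowest and 4 highest in replicate 2, the aorta library with the low mitochondrial sum. FOS, for example, had 8.02, 3.31 and 10.3 FPKM in aorta replicates 1, 2 and 3, and JUN 20.0, 33.5 and 28.1 FPKM. The part of the mitochondrial difference in the aorta values was not tested. Skeletal muscle markers (3 of 5 in the table) summed to 18.5 to 94.9 FPKM in lung and 0.598 to 43.8 FPKM in stomach, and endothelial markers (3 of 5) to 21.7 to 29.7 FPKM in lung, above all other tissues. Their part in the lung differences was not tested. In bulk tissue, fewer cells of a type and less RNA per cell cannot be told apart.

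In stomach 8 members were higher and 3 lower (7.65% and 5.87% of all tested genes). In brain 5 were higher and 5 lower, where 23.9% of all tested genes were higher and 10.5% lower. In spleen 6 were higher and 8 lower (11.5% and 13.5%). In liver 5 were higher and 11 lower (9.81% and 17.3%). In kidney 2 were higher and 9 lower (9.77% and 8.12%). In heart none was higher by limma and 8 were lower (6.41% and 17.4%), and none was higher at an unadjusted p under 0.05 or with limma voom. In liver, kidney, heart and spleen more members were called lower than higher, the reverse of aorta and lung. Of all tested genes, too, more were called lower than higher in liver, heart and spleen, but not in kidney.

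Part of the downward calls in heart depends on scaling. Genes above 0 in all libraries had a median log2 ratio to their mean over libraries of -0.53 to -0.43 in the heart libraries, and of -0.18 to 0.25 in the others. After median-ratio scaling removed that shift, 4 members were lower in heart, and CREBZF, EGR3, KLF3 and ZFP36L2 were no longer called there.

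**Figure D2:**
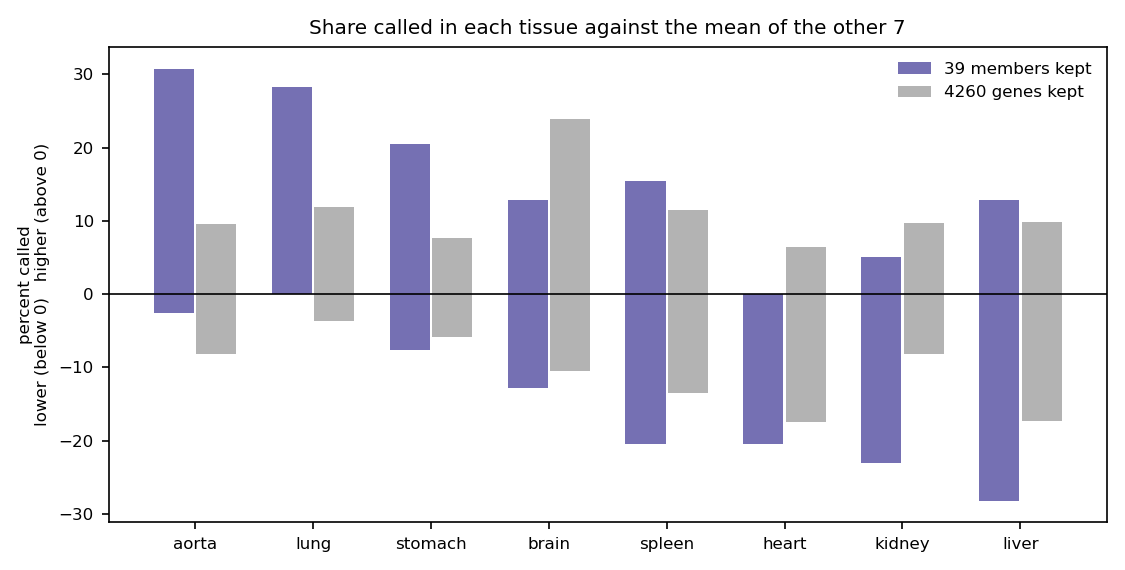
Percent of the 39 tested members (purple) and of all 4260 tested genes (grey) called higher (bars above 0) or lower (bars below 0) in each tissue against the mean of the other 7. Above 0 the purple bars exceed the grey ones in aorta, lung, stomach, spleen and liver, below 0 they reach further than the grey ones in every tissue but aorta and lung, and none stands above 0 in heart or below 0 in lung.

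Among the AP-1 genes, JUN was high in lung and aorta. It had 20.6, 40.8 and 52.3 FPKM in lung and 20.0, 33.5 and 28.1 FPKM in aorta. Stomach followed with 9.44, 12.9 and 22.8 FPKM, and the other 15 libraries lay between 0 and 11.5 FPKM. All 6 lung and aorta libraries were thus above every library outside lung, aorta and stomach. The difference was 2.67 ± 0.52 in lung (adjusted p = 0.000530) and 2.22 ± 0.52 in aorta (adjusted p = 0.00229). Lung and aorta did not differ beyond their spread (0.40 ± 0.69, adjusted p = 0.803), nor did aorta and stomach (0.87 ± 0.69, adjusted p = 0.403). JUN was lower in spleen (-1.90 ± 0.52, adjusted p = 0.00593), with 1.17, 0.797 and 2.02 FPKM. It was also called lower in liver and kidney, but the liver call ended without liver replicate 1 (-1.06, adjusted p = 0.146) and the kidney call without kidney replicate 1 (-1.22, adjusted p = 0.168) or 2 (-0.74, adjusted p = 0.349). Kidney replicate 3 held 11.5 FPKM and replicates 1 and 2 held 0.925 and 0 FPKM.

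JUNB, a JUN relative that forms AP-1 with weaker activating strength, was highest in stomach. Its 3 stomach libraries had 149, 136 and 211 FPKM and did not overlap the other 21, which ran from 5.11 through a median of 62.9 to 131 FPKM. The stomach difference was 1.79 ± 0.54 (adjusted p = 0.0166), and it lost its call without stomach replicate 1 (1.85, adjusted p = 0.0542) or 3 (1.60, adjusted p = 0.0943). Stomach did not exceed lung, the next tissue, beyond the spread (0.77 ± 0.71, adjusted p = 0.504). In kidney JUNB had 16.5, 5.11 and 92.8 FPKM, so the 3 libraries of that tissue spanned most of the range seen outside stomach. The kidney difference of -1.55 ± 0.54 (adjusted p = 0.0301) was no longer called without kidney replicate 1 (-1.40, adjusted p = 0.126) or 2 (-0.64, adjusted p = 0.405). JUND gave 0 FPKM in all 3 kidney libraries and at most 9.92 FPKM elsewhere, and its kidney call (-1.71 ± 0.52) ended without any one of the kidney libraries (adjusted p = 0.0568 to 0.0573).

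The FOS genes were counted at low levels. FOS had 8.02, 3.31 and 10.3 FPKM in aorta and 3.25, 5.72 and 7.04 FPKM in stomach, from 19 and 10 reads, and 0 to 7.89 FPKM in the other 18 libraries. It was higher in aorta (2.03 ± 0.50, adjusted p = 0.00352), a call that held with each library left out in turn. The stomach difference was 1.67 ± 0.50 (adjusted p = 0.0171), and it was not called without stomach replicate 2 (1.60, adjusted p = 0.0703) or 3 (1.47, adjusted p = 0.0995). FOS was listed at 0 in all liver and kidney libraries. FOSB, the relative known for accumulating as a stable short form in brain, was higher in aorta (1.33 ± 0.30) and in brain (1.05 ± 0.30). Its aorta libraries had 1.92, 1.23 and 4.47 FPKM and its brain libraries 0.912, 1.24 and 4.02 FPKM, and both calls rested on replicate 3: without it the difference was 0.96 (adjusted p = 0.0406) in aorta and 0.62 (adjusted p = 0.156) in brain. FOSL2 was higher in stomach, with 13.2, 17.8 and 6.75 FPKM against 0.324 to 8.51 FPKM in the other 21 libraries (1.96 ± 0.44, adjusted p = 0.00193).

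EGR3, the only EGR gene with enough reads, was highest in brain. The brain libraries had 12.2, 37.4 and 37.6 FPKM, from 280 reads, and the spleen libraries had 17.9, 10.4 and 6.91 FPKM. All other libraries stood between 0 and 13.8 FPKM, the top of them in aorta. EGR3 was higher in brain (3.39 ± 0.52, adjusted p = 1.35e-05) and in spleen (2.05 ± 0.52, adjusted p = 0.00351), and brain and spleen did not differ beyond their spread (1.17 ± 0.69, adjusted p = 0.181). It was listed at 0 in all liver libraries and was lower there (-2.04 ± 0.52, adjusted p = 0.00329). EGR3 is best known in brain as an activity-dependent gene and in lymphocytes as a gene induced by antigen receptor signalling.

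NR4A2, a nuclear receptor needed for midbrain dopamine neurons, was high in stomach as well as in brain. It had 138, 183 and 184 FPKM in stomach, more than in any of the other 21 libraries. Brain followed with 82.7, 134 and 131 FPKM, aorta with 33.4, 61.1 and 64.1 FPKM and lung with 19.0, 56.9 and 55.1 FPKM. The remaining 12 libraries, from heart, spleen, kidney and liver, held 0 to 14.1 FPKM. The difference was 3.63 ± 0.53 in stomach (adjusted p = 3.00e-05) and 3.00 ± 0.53 in brain (adjusted p = 7.01e-05), and these tissues did not differ from each other beyond their spread (0.56 ± 0.70, adjusted p = 0.578). Of the steps between neighbours in the order of the 8 tissues, lung above heart passed the test (2.24 ± 0.70, adjusted p = 0.0164). Brain markers (4 of 4 in the table) summed to 21.9 to 34.9 FPKM in stomach and 2.00 to 37.9 FPKM in aorta, against 5821 to 6774 FPKM in brain, and their part in the stomach and aorta values was not tested. NR4A2 was lower in liver (-3.56 ± 0.53), kidney (-2.55 ± 0.53) and spleen (-2.20 ± 0.53). Its aorta call (1.69 ± 0.53, adjusted p = 0.0174) ended without aorta replicate 2 (1.56, adjusted p = 0.0833) or 3 (1.53, adjusted p = 0.0908). NR4A3 was higher in brain at 2.16, 2.38 and 3.52 FPKM (1.19 ± 0.30, adjusted p = 0.00244), and NR4A1 was above 0 in 4 libraries, from aorta, brain and lung, with at most 1.74 FPKM.

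DUSP1, a nuclear phosphatase of the stress-activated and mitogen-activated kinases, was detected in all 24 libraries. It had 102, 104 and 89.9 FPKM in aorta and 46.3, 111 and 135 FPKM in lung. Heart had 6.98, 33.1 and 59.5 FPKM, kidney 8.98, 26.3 and 52.9 FPKM, liver 9.51, 16.2 and 38.4 FPKM and brain 4.27, 11.6 and 28.4 FPKM. Spleen had 6.64, 3.87 and 18.8 FPKM and stomach 3.40, 8.97 and 11.0 FPKM. The aorta libraries lay close together, whereas in most other tissues the library numbered 3 had several times the level of the library numbered 1. DUSP1 was higher in aorta (2.37 ± 0.59, adjusted p = 0.00352) and in lung (2.20 ± 0.59, adjusted p = 0.00676), and the lung call ended without lung replicate 3 (1.90, adjusted p = 0.0617). It was lower in stomach (-1.77 ± 0.59, adjusted p = 0.0296) and spleen (-1.59 ± 0.59, adjusted p = 0.0336). Those calls ended without stomach replicate 1 (-1.33, adjusted p = 0.198) or 2 (-1.92, adjusted p = 0.0633), and without spleen replicate 1 (-1.47, adjusted p = 0.120) or 2 (-1.14, adjusted p = 0.211). No step between neighbours in the tissue order passed the test, the widest being lung over heart (1.82 ± 0.78, adjusted p = 0.0738).

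DUSP10, another phosphatase of the stress-activated kinases, was also higher in aorta, at 2.02, 1.95 and 2.32 FPKM against 0 to 2.81 FPKM in the other 21 libraries (1.10 ± 0.34, adjusted p = 0.0160). The call ended without any one of the aorta libraries (adjusted p = 0.0502 to 0.0714). DUSP3, a small phosphatase of the family, was not called in any tissue, and the other DUSP genes tested had their highest means outside aorta. Of these only DUSP16 exceeded each other tissue in the pairwise tests. The step to the next tissue did not pass for DUSP7 (lung over spleen, adjusted p = 0.0967), DUSP5 (brain over stomach, 0.935) or DUSP6 (kidney over liver, 0.957). DUSP16, which acts on JNK kinases, had 33.9, 20.2 and 29.9 FPKM in liver, above all 21 other libraries at 1.35 to 12.9 FPKM (1.83 ± 0.27, adjusted p = 1.17e-05). It was lower in aorta at 4.53, 1.35 and 3.84 FPKM (-1.41 ± 0.27, adjusted p = 0.000325). DUSP7, an ERK phosphatase, had 35.5, 27.0 and 25.3 FPKM in lung and at most 19.3 FPKM elsewhere (2.42 ± 0.52, adjusted p = 0.00120). DUSP5, a nuclear ERK phosphatase, had 1.39, 3.77 and 15.0 FPKM in brain and 4.14, 6.07 and 2.99 FPKM in stomach, and was listed at 0 in all heart, kidney and liver libraries. Its brain call (1.52 ± 0.44) ended without brain replicate 3 (0.77, adjusted p = 0.193), and its stomach call (1.39 ± 0.44) without stomach replicate 1 (1.41, adjusted p = 0.0750) or 2 (1.18, adjusted p = 0.128). DUSP6, a cytoplasmic ERK phosphatase, had 2.49, 1.72 and 7.14 FPKM in kidney (1.14 ± 0.38), a call that ended without kidney replicate 3 (0.67, adjusted p = 0.265). Liver, at 5.28, 2.565 and 1.42 FPKM, came close (0.94 ± 0.38, adjusted p = 0.0472), under the size needed for a call.

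Promoters of the mouse genes were read from RefSeq tables of build GRCm38.p6, as the 250 bases before and the 50 after each gene's start. Of the 56 members, 47 matched by symbol, with 55 promoters in all. The cAMP response element TGACGTCA, bound by CREB and ATF proteins, stood in 5.45% of them, in BTG2, CREB5 and DUSP1, and in 1.79% of all 32851 promoters. The serum response element core known as the CArG box stood in 12.7%, in promoters of 4 genes (DUSP5, EGR2, KLF8 and ZFP36), and in 1.63% of all promoters. EGR2 has 5 listed promoters that overlap in part, and the 4 of them with a CArG box hold only 2 distinct sites. Counted by gene, a CArG box stood in at least 1 promoter of 8.51% of the 47 members and of 1.81% of all 27025 genes. The AP-1 site TGANTCA stood in 5.45% of the members' promoters and in 7.81% of all, and the EGR site GCGTGGGCG in 1.82% and in 0.612%. Both strands were searched, and a match is a description of letters, not a site shown to be bound. The promoters of 3 members are shown, since DUSP1 passed the test of replicate number and DUSP5 and CREB5 are tested members with a CArG box and a cAMP response element. Capitals mark the CArG boxes in DUSP5 and the cAMP response element in DUSP1 and CREB5, and each is printed 5′ to 3′ on the strand of its gene.
DUSP1, chr17:26508423-26508722, minus strand: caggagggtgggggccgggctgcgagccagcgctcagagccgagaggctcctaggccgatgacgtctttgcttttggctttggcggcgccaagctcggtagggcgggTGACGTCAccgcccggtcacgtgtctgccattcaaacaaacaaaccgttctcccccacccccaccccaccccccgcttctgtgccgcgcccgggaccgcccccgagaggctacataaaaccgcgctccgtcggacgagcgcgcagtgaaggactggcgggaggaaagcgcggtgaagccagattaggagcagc
DUSP5, chr19:53528895-53529194, plus strand: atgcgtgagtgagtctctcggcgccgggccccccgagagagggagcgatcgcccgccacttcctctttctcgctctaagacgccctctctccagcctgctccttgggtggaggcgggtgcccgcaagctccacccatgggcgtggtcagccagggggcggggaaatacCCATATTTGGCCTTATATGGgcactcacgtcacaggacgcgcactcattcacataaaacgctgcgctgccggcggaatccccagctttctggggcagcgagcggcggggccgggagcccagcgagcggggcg
CREB5, chr6:53287053-53287352, plus strand: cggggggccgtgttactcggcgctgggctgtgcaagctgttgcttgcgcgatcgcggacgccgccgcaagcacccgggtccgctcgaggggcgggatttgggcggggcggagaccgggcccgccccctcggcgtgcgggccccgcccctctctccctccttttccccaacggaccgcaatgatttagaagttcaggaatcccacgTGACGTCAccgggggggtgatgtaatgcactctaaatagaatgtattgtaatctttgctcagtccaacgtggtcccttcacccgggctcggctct
The element in DUSP1 begins 143 bases before the start, and that in CREB5 45 bases before it. DUSP5 holds 2 CArG boxes side by side, which begin 82 and 72 bases before its start.

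IER5 and IER5L were tested in the IER family, and liver was low for both. IER5 was listed at 0 in all liver libraries, below every other library (-2.08 ± 0.36, adjusted p = 9.34e-05). Liver had the lowest mean depth, a 0 allows up to 3 reads, and each kidney library held only 1 to 3 reads of IER5. Kidney did not exceed liver beyond the spread (1.06 ± 0.48, adjusted p = 0.122), so depth limits the lack of overlap. IER5 was higher in lung, at 8.77, 16.8 and 6.92 FPKM (1.90 ± 0.36), and in spleen, at 12.3, 13.6 and 4.31 FPKM (1.74 ± 0.36). IER5L had 0, 1.72 and 5.71 FPKM in liver, against 9.10 to 135 FPKM in the other 21 libraries (-3.61 ± 0.42, adjusted p = 7.63e-07). Its aorta libraries, at 135, 64.3 and 49.0 FPKM, were above all others (1.95 ± 0.42, adjusted p = 0.00115). Aorta did not exceed lung, the next tissue, beyond the spread (0.92 ± 0.56, adjusted p = 0.316). The IER5L liver values rest on 4 reads and the aorta values on 282.

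Brain was the low tissue for both ZFP36 relatives. ZFP36L1 had 39.8, 28.5 and 32.3 FPKM in brain, and the other 21 libraries ran from 99.0 through a median of 250 to 462 FPKM without overlap (-2.87 ± 0.18, adjusted p = 1.93e-11). ZFP36L2 had 1.40, 1.26 and 3.65 FPKM in brain, against 3.09 to 38.0 FPKM elsewhere (-2.78 ± 0.31, adjusted p = 1.33e-07). ZFP36L1 was also higher in liver and in lung, at 395 ± 81.6 and 393 ± 64.5 FPKM (SD, n = 3 each), by 1.14 ± 0.18 and 1.15 ± 0.18. After median-ratio scaling its lung difference was 0.90, under the size needed for a call.

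BTG1, an antiproliferative factor abundant in resting lymphocytes, was among the 6 members called higher in spleen. Of these it alone exceeded each other tissue in the pairwise tests. It had 1894, 1878 and 1019 FPKM in spleen, against 114 through a median of 327 to 698 FPKM in the other 21 libraries. No other library reached the lowest spleen library, which was replicate 3. The difference was 2.30 ± 0.16 (adjusted p = 1.20e-09), and spleen exceeded the next tissue, lung, by 1.25 ± 0.22 (adjusted p = 0.000150). BTG1 was lower in brain (-1.80 ± 0.16) and heart (-1.59 ± 0.16), at 128 ± 21.3 and 145 ± 16.8 FPKM (SD, n = 3 each). BTG3, a relative, was instead highest in lung at 5.59, 13.8 and 12.5 FPKM, followed by aorta at 1.03, 2.00 and 6.22 FPKM, and was at most 1.45 FPKM in the other 18 libraries. Lung exceeded aorta for BTG3 (1.64 ± 0.49, adjusted p = 0.0239), and the aorta call itself (1.01 ± 0.37) ended with the loss of any of 9 single libraries.

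Over 8 tested ATF and CREB members and 8 tissues there were 3 higher calls and 1 lower call, where 11.3% of all gene and tissue pairs were called higher and 10.6% lower. The higher calls of CREB5 in aorta and ATF5 in liver carry no weight as tests. Each of these genes passed the filter only with that tissue, which leaves CREB1 in spleen. CREB5, which binds cAMP response elements and related sites, had 4.35, 4.90 and 4.54 FPKM in aorta, from 77 reads, and at most 0.938 FPKM elsewhere. Aorta exceeded lung, the next tissue, by 1.66 ± 0.15, and with any aorta library left out the gene no longer passed the filter. CREB1, the main cAMP-responsive activator, had 26.2, 25.0 and 32.5 FPKM in spleen, above all other libraries at 5.47 to 18.5 FPKM (1.35 ± 0.22, adjusted p = 4.75e-05). For CREB1 the step from spleen to lung, the next tissue, did not pass the test (0.69 ± 0.29, adjusted p = 0.0890). ATF5 had 1.73, 6.73 and 1.87 FPKM in liver, from 6 reads, and was above 0 in 2 of the other 21 libraries at 0.872 and 1.02 FPKM (1.88 ± 0.24). CREBZF was lower in heart at 32.9, 18.6 and 23.5 FPKM (-1.20 ± 0.17). ATF2, a target of the stress-activated kinases, ranged only from 32.3 to 139 FPKM over the 24 libraries, highest in brain at 128 ± 11.5 FPKM and lowest in aorta at 41.2 ± 7.73 FPKM (SD, n = 3 each). Its F test passed (adjusted p = 1.22e-07), but its differences, -0.89 ± 0.13 to 0.96 ± 0.13, did not reach 1 in any tissue.

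Over the 8 tested KLF genes and 8 tissues there were 14 higher and 14 lower calls, beside the 11.3% and 10.6% of all gene and tissue pairs. In lung 5 of the 8 were higher, where 11.9% of all tested genes were. KLF4, a factor of differentiating epithelium and of smooth muscle and endothelium, had 208, 215 and 257 FPKM in stomach. Lung had 30.0, 123 and 115 FPKM, aorta 27.8, 26.0 and 39.7 FPKM, heart 7.40, 8.22 and 24.4 FPKM, and the other 12 libraries at most 10.3 FPKM, with 0 FPKM in all liver libraries. The lung and aorta values did not overlap those of stomach. Its difference was 4.99 ± 0.40 in stomach (adjusted p = 1.31e-08), 3.19 ± 0.40 in lung and 1.74 ± 0.40 in aorta, and stomach exceeded lung by 1.57 ± 0.53 (adjusted p = 0.0374). Lung over aorta (1.27 ± 0.53, adjusted p = 0.120) and aorta over heart (1.34 ± 0.53, adjusted p = 0.0661) did not pass the test. It was lower in liver (-3.96 ± 0.40), brain (-2.47 ± 0.40) and kidney (-2.38 ± 0.40).

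KLF5, which drives proliferation of gut epithelium, had 26.1, 25.5 and 18.9 FPKM in stomach and at most 8.82 FPKM in the other 21 libraries. It was higher in stomach (3.87 ± 0.42, adjusted p = 8.32e-07), which exceeded lung by 2.17 ± 0.56 (adjusted p = 0.00669). The lung call for KLF5 (1.39 ± 0.42) ended without lung replicate 1 (1.32, adjusted p = 0.0677) or 3 (0.96, adjusted p = 0.171). KLF3, a repressor, was higher in stomach (1.55 ± 0.17) and lung (1.38 ± 0.17), at 153 ± 13.6 and 140 ± 34.5 FPKM (SD, n = 3 each). It was lower in brain at 11.6, 13.4 and 9.64 FPKM, below every other library (-2.59 ± 0.17, adjusted p = 2.86e-11). KLF6 and KLF7 were higher in lung (1.90 ± 0.27 and 1.33 ± 0.24), with 3.31, 6.58 and 7.24 FPKM for KLF6 and 9.27, 7.34 and 7.32 FPKM for KLF7. KLF13 was higher in spleen at 8.29, 3.64 and 2.53 FPKM (1.08 ± 0.36). That call ended without spleen replicate 1 (0.68, adjusted p = 0.203) or stomach replicate 2 (0.99, adjusted p = 0.0123). In heart KLF13 was lower, at most 0.393 FPKM (-1.50 ± 0.36, adjusted p = 0.00212).

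KLF9, a glucocorticoid-responsive gene, was the inverse case, with spleen as the only tissue called lower. Spleen had 11.0, 30.5 and 12.7 FPKM, and the other 21 libraries ran from 60.5 through a median of 141 to 209 FPKM. The spleen difference was -3.01 ± 0.19 (adjusted p = 1.83e-10), and the next lowest tissue, stomach, exceeded spleen by 2.00 ± 0.25 (adjusted p = 3.42e-06). Stomach, at 77.5, 67.1 and 60.5 FPKM, was low as well, and heart exceeded it by 0.73 ± 0.25 (adjusted p = 0.0291). Its own difference (-0.73 ± 0.19, adjusted p = 0.00621) was under the size needed for a call. KLF9 was higher in kidney (1.07 ± 0.19) and liver (1.05 ± 0.19), at 204 ± 4.60 and 202 ± 11.0 FPKM (SD, n = 3 each), but both differences fell under 1 after median-ratio scaling (0.86 and 0.98).

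**Figure D3:**
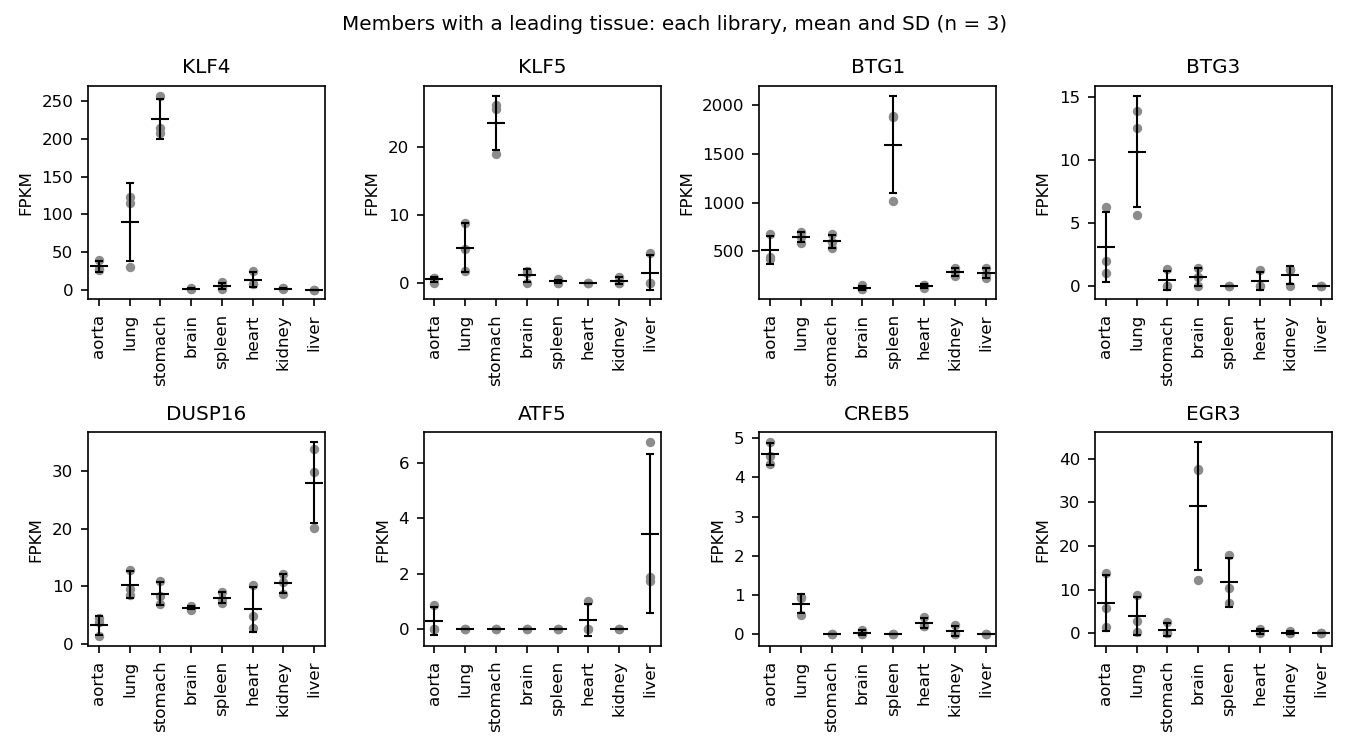
FPKM of 8 members in each tissue, with grey points for libraries, a dash for the tissue mean and bars for the SD (n = 3), each panel on its own linear scale. The 3 stomach points of KLF4 and KLF5, the 3 spleen points of BTG1, the 3 liver points of DUSP16 and ATF5 and the 3 aorta points of CREB5 lie above all others, while the lowest lung point of BTG3 (5.59 FPKM) and the lowest brain point of EGR3 (12.2 FPKM) overlap points of other tissues.

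Of the 94 member and tissue calls, 49 were higher and 45 lower. In 12 of the 49 higher calls and 6 of the 45 lower calls, the 3 libraries of the tissue did not overlap the other 21, against 38.2% of the higher and 11.1% of the lower calls of all tested genes. With each of the 24 libraries left out in turn, 56 of the 94 calls held in every fit, 37 ended in at least 1, and that of CREB5 in aorta could not be tested without an aorta library.

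The labels give libraries of all tissues the same numbers, 1 to 3, and an F test beside tissue asked whether a member differed by number. DUSP1 was the 1 member called of 39, with 0.117% of all tested genes called, which is 5 of 4260. Its log2(FPKM + 1) was on average 1.74 ± 0.28 higher in libraries numbered 3 than in those numbered 1, and 0.91 ± 0.28 higher in those numbered 2 than in those numbered 1 (adjusted p = 0.0359). The library numbered 3 was above that numbered 1 in 7 of 8 tissues and was the highest of the 3 in 7 of 8. The exception was aorta, where replicate 3 had 89.9 FPKM, against 102 and 104 FPKM in replicates 1 and 2. As ratios, the widest gaps were in heart, at 59.5 FPKM in replicate 3 and 6.98 FPKM in replicate 1, and in brain, at 28.4 and 4.27 FPKM. In FPKM the widest gap was in lung, at 135 and 46.3 FPKM.

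That call was near its threshold. It ended with no filter on low values (adjusted p = 0.0765), with limma voom on recovered reads (adjusted p = 0.0904), and in 18 of 24 fits that left out a library, with adjusted p from 0.00518 without aorta replicate 1 to 0.121 without lung replicate 1. The size of the coefficient moved less, staying between 1.57 and 1.95 over those 24 fits. The labels do not say what a replicate number stands for, and animal, collection order and library preparation cannot be told apart.

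Other members did not pass the test. JUN was higher in the library numbered 3 than in that numbered 1 in 8 of 8 tissues (1.20 ± 0.33, adjusted p = 0.380). NR4A2 was higher in 7 of 8 tissues (1.02 ± 0.38, adjusted p = 0.554), and JUNB in 5 of 8 (0.59 ± 0.36, adjusted p = 0.425). FOS had a coefficient of 0.67 ± 0.36 (adjusted p = 0.579). The coefficient was above 0 for 30 of the 39 members, against 53.8% of all tested genes, and its median was 0.12, against 0.02 for all tested genes. An unadjusted p under 0.05 was reached by 6 members and by 8.94% of all tested genes. FOSL2 differed in another pattern, with replicate 2 above replicate 1 in 8 of 8 tissues (0.92 ± 0.30, adjusted p = 0.470).

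**Figure D4:**
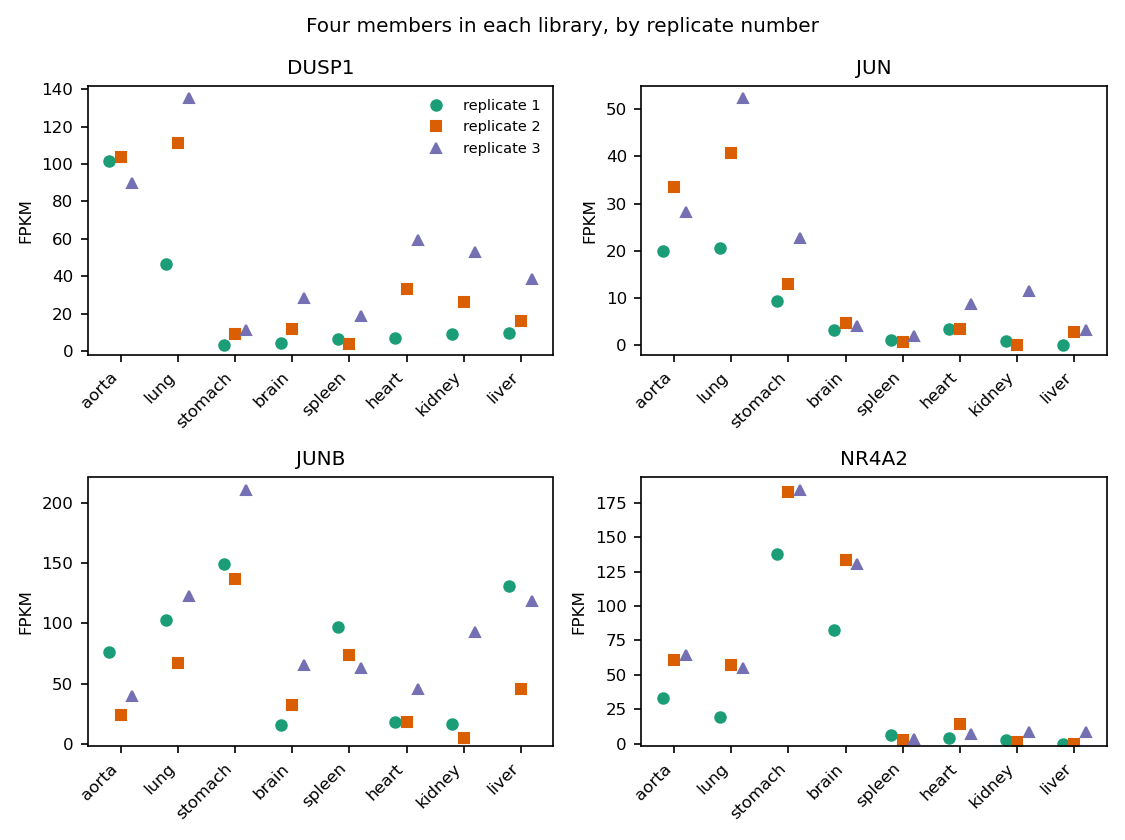
FPKM of DUSP1, JUN, JUNB and NR4A2 in each library by tissue, with circles for replicate 1, squares for replicate 2 and triangles for replicate 3, each panel on its own linear scale. The DUSP1 triangle is the highest of the 3 symbols in every tissue but aorta, and the JUN triangle lies above the circle in all 8 tissues.

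**Figure D5:**
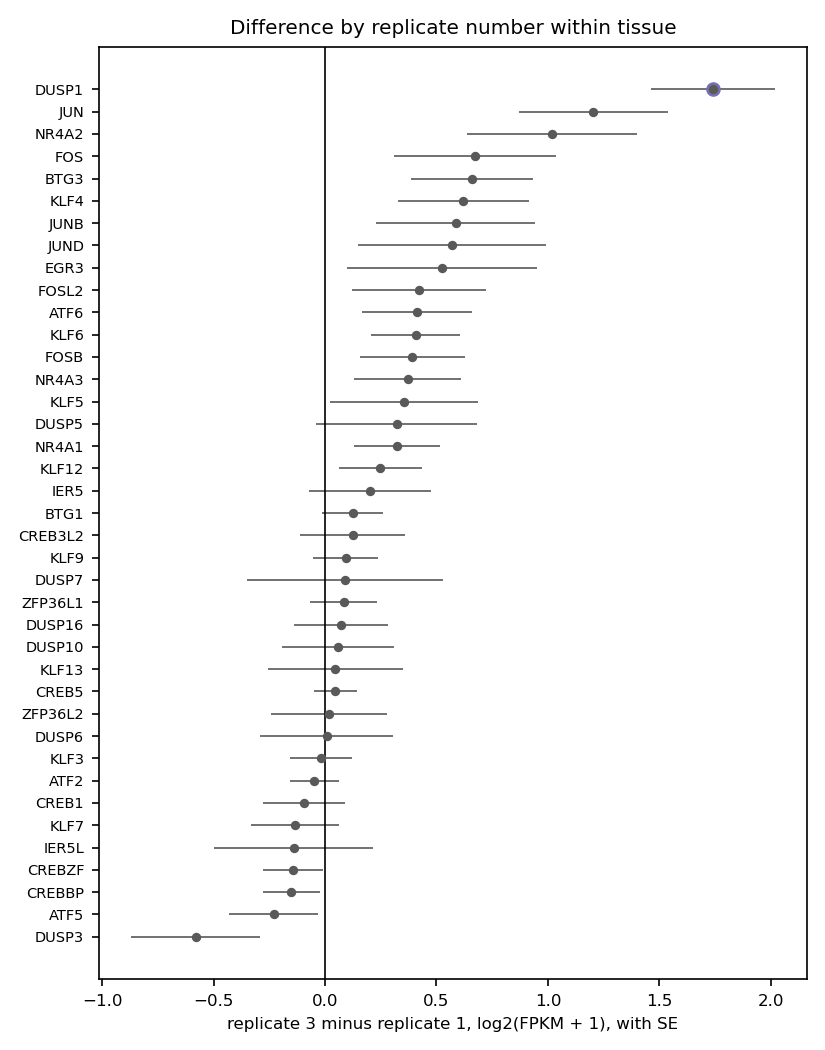
Coefficient for replicate 3 minus replicate 1 in log2(FPKM + 1) beside tissue for the 39 tested members (rows, in order of size), with bars for the standard error and DUSP1 as a larger purple point. DUSP1 (1.74), JUN (1.20) and NR4A2 (1.02) stand at the right end and DUSP3 (-0.58) at the left end.

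Genes of the same responses outside the naming rule were followed through 3 lists. Of 35 other immediate early and stress genes, 22 were in the table and 16 were tested, with 27 higher and 19 lower calls over the 8 tissues (21.1% and 14.8% of their gene and tissue pairs, against 11.3% and 10.6% for all tested genes). In lung 8 of the 16 were higher and 1 lower (11.9% and 3.64% of all tested genes), in aorta 5 and 1 (9.58% and 8.19%), and in brain 3 and 6 (23.9% and 10.5%). CCN1, a secreted matrix protein and serum response target, was higher in aorta at 712 ± 244 FPKM (SD, n = 3; 3.91 ± 0.65, adjusted p = 8.24e-05), and SOCS3, a cytokine feedback inhibitor, was lower in brain at 0.386 ± 0.336 FPKM (SD, n = 3; -3.97 ± 0.31, adjusted p = 5.88e-10). Of 41 upstream kinases and factors, 21 were tested, with 19 higher and 21 lower calls over the 8 tissues, or 11.3% and 12.5% of their pairs. In brain 7 were higher and 1 lower (23.9% and 10.5% of all tested genes), and in liver 2 and 7 (9.81% and 17.3%). CAMK2B and CAMK2A, the neuronal calcium-dependent kinases, were higher in brain at 305 ± 8.07 and 63.7 ± 39.2 FPKM (SD, n = 3 each; 8.02 ± 0.23 and 5.80 ± 0.22). Of 12 heat shock genes, 10 were tested, with 4 higher and 5 lower calls over the 8 tissues, or 5% and 6.25% of their pairs. In heart 3 were lower (17.4% of all tested genes), in brain 2 were higher and 1 lower, in aorta 1 was higher, and in liver HSPA5, a chaperone of the endoplasmic reticulum, was higher (1.39 ± 0.51, adjusted p = 0.0319) and HSF1, the heat shock transcription factor, lower (-1.26 ± 0.32, adjusted p = 0.00267). HSPA1A, the stress-inducible chaperone, was that aorta gene at 14.1 ± 9.63 FPKM (SD, n = 3; 2.56 ± 0.63, adjusted p = 0.00337), and HSP90AA1 was higher in brain and lower in heart (1.40 ± 0.23 and -1.86 ± 0.23). By replicate number, no gene of the 3 lists was called in the main limma fit. HSPA5 had the smallest adjusted p (0.0873), with libraries numbered 2 and 3 above those numbered 1 by 1.415 and 0.978. CCN1 had the coefficient nearest to that of DUSP1, with libraries numbered 3 above those numbered 1 by 1.68 on the log2(FPKM + 1) scale. Its adjusted p was 0.0942, and 0.0395 with limma voom on recovered reads. By replicate number, voom called 34 of 4260 genes, against 5 in the main fit.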

How the data were processed

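TRIzol served for total RNA and a VAHTS Universal V10 kit for the libraries, per the labels' protocols. The submitters' processing notes list fastp, HISAT2 and HTSeq and the human build GRCh38.p13. Not given in the sources used here were tool versions, annotation and strand. Deposited by the authors were FPKM for 7493 genes in 24 libraries, without gene coordinates. Libraries were grouped by the tissue and replicate number in their titles.

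Whole reads were recovered from the steps of the deposited FPKM for 100% of genes (relative tolerance 1e-06), as the smallest whole numbers in each gene's ratio. They matched the depth implied by the steps to within a ratio of 0.999161 to 1.00007. A count of 0 allows up to 3 reads per library, a limit that covers counting error alone. Replicates of a tissue correlated across genes at r = 0.949 to 0.973, and no pair agreed within sampling noise (chi-square per degree of freedom at least 2.90).

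The main fit was limma 3.58.1 (R 4.3.3) with a mean-variance trend on log2(FPKM + 1) over 4260 genes that reached 1 FPKM in 3 or more libraries, with p-values adjusted by Benjamini-Hochberg within each contrast. Each tissue was set against the mean of the other 7, 28 pairs of tissues were tested, and replicate number was tested beside tissue. The F tests and pairwise tests were fitted over all libraries. Alternatives were median-ratio scaling, a pseudocount of 0.1, a filter at 5 FPKM or none, no mitochondrially encoded genes, limma voom on recovered reads, a replicate block and each library left out, and aorta replicates 1 and 3 left out together. The voom test of replicate number was added after seeing the data.

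The members and lists were chosen with earlier results of these data known. Values in every library were given for DUSP1, for members above each other tissue, for the 3 largest calls in each direction and tissue, and for classical immediate early genes, with ranges or tissue means where many repeat. Python 3.11.15 with numpy 2.4.6, pandas 2.3.3 and matplotlib 3.10.9 made the tables and figures.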

Additional observations from a re-analysis of the deposited data

How the results depend on the processing

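None of the 94 member and tissue calls turned its direction in any of the alternatives run, and leaving out mitochondrially encoded genes kept all 94. Calls that ended numbered 10 with a pseudocount of 0.1, 8 with no filter, 9 with median-ratio scaling, 12 with limma voom and 15 without aorta replicates 1 and 3, which leaves a single aorta library assumed to vary like the others. A filter at 5 FPKM ended 0 but left 15 untested. With a pseudocount of 0.1, 1 member was higher in kidney, 5 were lower in spleen and 4 exceeded every other tissue. With no filter or with limma voom, 0 members had a replicate number effect. At 5 FPKM, 3 members were higher in brain, 1 in kidney and 3 in liver. With median-ratio scaling, 4 were lower in heart and 1 was higher in kidney. With limma voom, 10 were lower in brain and 7 in liver. Without aorta replicates 1 and 3, 3 were higher and 2 lower in aorta. Apart from the filters, scaling and dropped libraries, which change what is tested, the cause was not tested. Shares of all tested genes under each alternative, or with a library left out, are not given here. The changes in these counts are therefore not read as particular to the members.

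Leaving out 1 library at a time gave ranges of 7 to 13 members higher and 1 to 1 lower in aorta, 10 to 12 and 0 to 0 in lung, 6 to 9 and 2 to 4 in stomach, 3 to 7 and 5 to 5 in brain, 4 to 6 and 4 to 8 in spleen, 0 to 0 and 7 to 10 in heart, 1 to 2 and 3 to 10 in kidney, and 5 to 6 and 6 to 11 in liver. The count differing among tissues ran from 33 to 36, that exceeding every other tissue from 5 to 8, and that with a replicate number effect from 0 to 1.

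The replicate block kept all 94 calls. Libraries of the same number in different tissues deviated together only weakly (84 pairs, median r = 0.024, 2 pairs above 0.1), against a median r of -0.017 over 168 pairs of different numbers, so the number was not taken as a pairing. Yet 20 of 24 libraries correlated best, on average, with the libraries of their own number in other tissues. What libraries of the same number share was not tested.

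Depth limits the low members most: FOS, FOSB, ATF5, DUSP5, DUSP6 and BTG3 rest on few reads per tissue, as does IER5 in aorta, kidney and liver. A difference among the low tissues of these genes was not detectable.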

Other observations

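NPAS4, a transcription factor best known as an activity-dependent gene of neurons, was higher in aorta as well as in brain. It had 16.4, 20.9 and 55.0 FPKM in aorta and 7.92, 15.6 and 22.6 FPKM in brain, from 193 and 140 reads, and 3.42, 5.42 and 8.15 FPKM in stomach. All other libraries held at most 2.42 FPKM, and kidney and liver were listed at 0. The difference from the mean of the other 7 tissues was 3.51 ± 0.33 in aorta (limma adjusted p = 7.02e-08) and 2.51 ± 0.33 in brain (adjusted p = 1.54e-06). Aorta replicate 1 also held 37.9 FPKM of brain markers, against 2.59 and 2.00 FPKM in aorta replicates 2 and 3. The part of brain RNA in the aorta values was not tested.

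CCN1 did not pass the test of replicate number in limma on log2(FPKM + 1) (adjusted p = 0.0942), which called 5 of 4260 genes. It passed with limma voom on recovered reads (adjusted p = 0.0395), which called 34 of them. Its libraries numbered 1, 2 and 3 had 14.6, 67.1 and 356 FPKM in kidney, 33.6, 16.3 and 63.4 FPKM in liver, 5.29, 6.83 and 25.9 FPKM in brain and 18.5, 17.1 and 102 FPKM in spleen. The library numbered 3 was the highest in all 8 tissues.

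FLI1, a human gene beside SENCR as well as a mouse gene, had the smallest p for replicate number of all 4260 genes (adjusted p = 0.000269), and its libraries numbered 2 were below those numbered 1 by 1.35 on the log2(FPKM + 1) scale. Lung, for example, had 846, 325 and 524 FPKM, and kidney 165, 56.2 and 153 FPKM. That pattern, lowest in replicate 2, differs from the one of DUSP1, which was highest in replicate 3.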
